A study of Sus scrofa with 8 samples.

Results

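The genes described here are 6 enzymes that burn fatty acids in mitochondria or prepare them for it: ACSL1, ACADVL, ECI2, ECH1, ETFB and ETFDH. They were taken as every probe set whose single gene symbol in the platform annotation is one of these names, which gave 9 probe sets for 6 genes, of 23999 probe sets and 6765 named genes in all. ACADVL, ECI2 and ETFDH have 2 probe sets each, and ACSL1, ECH1 and ETFB have 1. The members were chosen by measured values of these same arrays, among them the difference between high-dose and untreated animals, and every comparison here shares arrays with that one. Their own differences are therefore given as a description, with no test, and tests are given only for other genes of the pathway.

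The study treated pigs with glial growth factor 2 (GGF2), an isoform of neuregulin-1 that acts on heart muscle through ERBB receptors, after myocardial infarction. All 8 animals were castrated male Yorkshire pigs with an infarct, less than 1 year old, and the labels give the same mean weight of 54.5 kg for each. Left ventricular muscle away from the infarct was measured on 1 Affymetrix porcine array per animal: 3 animals were untreated, 3 received a low dose of GGF2 (0.67 mg/kg in each infusion) and 2 a high dose (2.0 mg/kg), over 4 weeks in both cases. The labels do not say whether the untreated animals received a vehicle, and no animal without an infarct is among the samples. The RMA values are logarithms to base 2, so a difference of 1 is a doubling of signal.

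Fatty acids are the main fuel of the adult heart. A long-chain fatty acid is first joined to coenzyme A by an acyl-CoA synthetase (ACSL1 is the main one in heart), carried into mitochondria as a carnitine ester, and then shortened in repeated rounds of beta-oxidation. ACADVL, the very-long-chain acyl-CoA dehydrogenase, opens each round for long chains. ECI2 and ECH1 are isomerases that move double bonds of unsaturated chains to positions the cycle can use. The dehydrogenases hand their electrons to electron transfer flavoprotein, made of the chains ETFA and ETFB, and ETFDH passes them on to ubiquinone in the respiratory chain.

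The tissue carried its label: all 11 measured cardiac muscle markers (MYH7, MYL2, TNNT2 and others) were far above background, with means between 10.39 and 14.87. The number of animals limits precision, and sequencing depth does not apply to an array. The arrays resembled each other, with correlations across probe sets between 0.981 and 0.994. RNA integrity was read from the mean log2 gap between probe sets at the 3' and the 5' end of control genes, which was 2.93 to 3.36 in untreated animals, 3.28 to 3.78 in the low-dose group and 3.00 to 3.03 in the high-dose group. Untreated replicate 2 and low-dose replicate 1 carried neighbouring animal tag numbers, as did untreated replicates 1 and 3 and the pair of high-dose animals, so a feature shared by the latter pair cannot be told apart from the dose.

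At the high dose all 6 genes were higher than in untreated animals, by 0.34 (ETFB) to 1.03 (ECI2) on the log2 scale (each gene by its brightest probe set), with a median of 0.45 against 0.01 over all probe sets. At the low dose there was no common direction: 3 genes were higher and 3 lower, with a median of 0.07 against 0.01 over all probe sets. In 8 of the 9 probe sets both high-dose animals lay above all 3 untreated ones, and 14.7% of all probe sets did so; since the members were chosen with this contrast known, nothing is read from that count. Both high-dose animals exceeded all 6 others in 7 of the 9, and 6.52% of all probe sets were of this kind. At the low dose 2 of the 9 were higher with no overlap (5.23% of all probe sets) and none lower (3.87%). These 2 were ETFB, with 10.36 in a low-dose animal next to 10.35 in an untreated one, and the dimmer ECI2 probe set. Their count was 1 with each array centred on its median and 3 with quantile normalization repeated. In limma 0% of all probe sets had an adjusted p under 0.05 in either comparison with untreated. The exception among the 9 at the high dose was the dimmer ECI2 probe set, whose mean of 3.18 lies below the lower quartile of all probe sets (3.78) and is close to background.

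**Figure D1:**
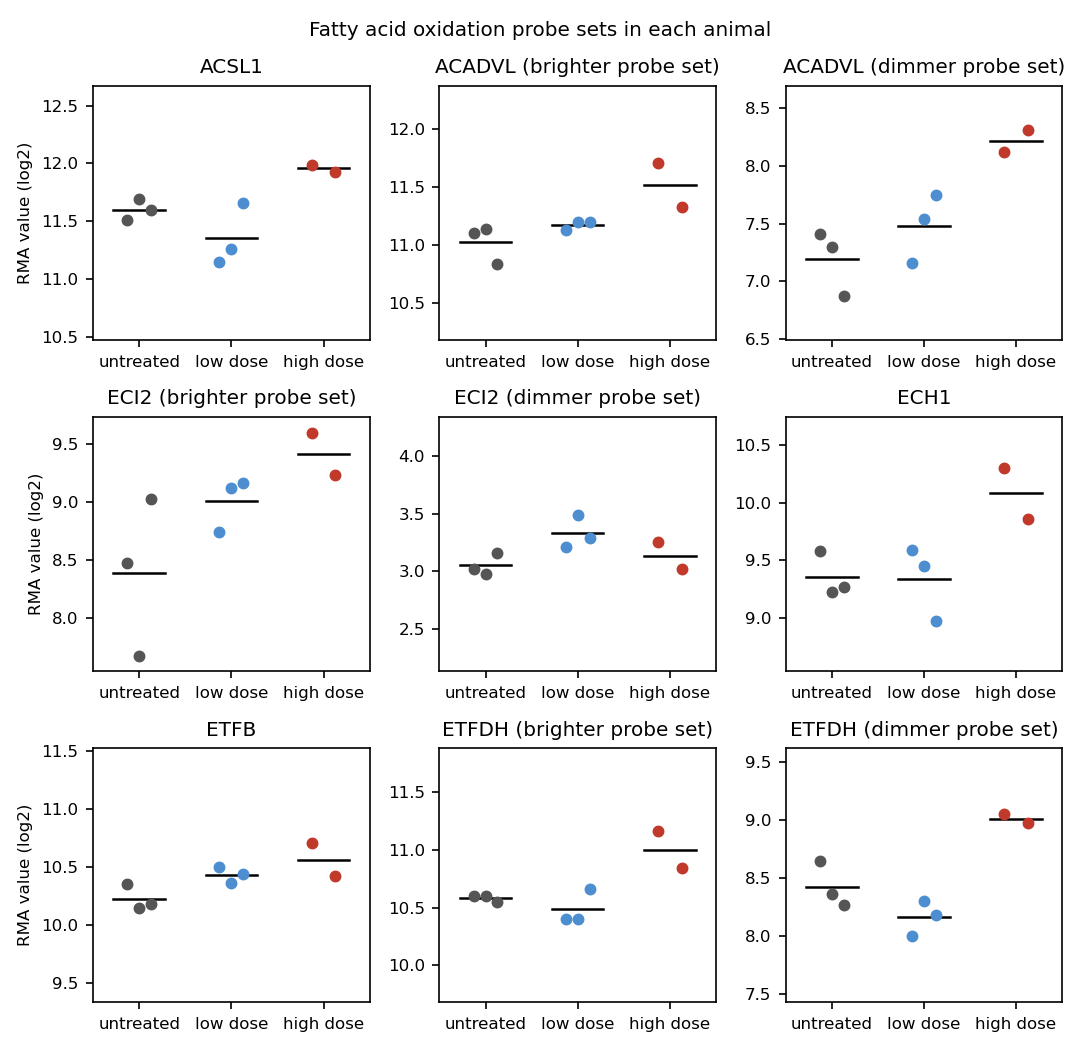
RMA values (log2, vertical axis, the same span in each panel) of the 9 probe sets in each of the 8 animals, by group; points are animals and bars are group means. The high-dose animals sit above all 6 others in 7 of the 9 panels, while low-dose and untreated animals are mixed in most panels.

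ACSL1, which activates long-chain fatty acids, measured 11.51, 11.69 and 11.60 in the untreated animals, 11.15, 11.26 and 11.66 in the low-dose group, and 11.99 and 11.93 in the high-dose group. Both high-dose animals lay above the other 6, and the low-dose animals reached from below the untreated ones into their range. Untreated animals had a mean of 11.60 ± 0.09 (SD, n = 3), against 11.36 ± 0.27 with the low dose (n = 3) and 11.96 ± 0.05 with the high dose (n = 2); later means are given in this order and form. The log2 difference from untreated was 0.36 ± 0.16 at the high dose (moderated SE from limma) and -0.24 ± 0.14 at the low dose. ACSL1 thus had the low dose as its lowest group, but low dose and untreated did not separate. Without low-dose replicate 3 the low-dose difference was -0.39, without low-dose replicate 1 it was -0.14, and with the 3' to 5' gap as a covariate it was -0.13.

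Of the other acyl-CoA synthetases, ACSL3 was the one that lay close to this pattern. It measured 6.78, 7.24 and 6.94 in untreated animals, 6.62, 6.74 and 6.99 in the low-dose group, and 7.43 and 7.48 in the high-dose group. The ACSL3 differences from untreated were 0.46 ± 0.17 at the high dose (limma adjusted p = 0.526) and -0.21 ± 0.15 at the low dose (limma adjusted p = 0.998), so neither passed. ACSL4, which prefers arachidonate, differed by 0.21 ± 0.17 and 0.19 ± 0.16 at the high and low dose, and ACSL5 by -0.15 ± 0.24 and 0.05 ± 0.21.

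ACADVL measured 11.10, 11.14 and 10.84 in untreated animals on its brighter probe set, 11.13, 11.20 and 11.20 in the low-dose group, and 11.71 and 11.33 in the high-dose group. The groups stood in the order of the dose, with means of 11.03 ± 0.16, 11.18 ± 0.04 and 11.52 ± 0.27, but untreated and low-dose animals overlapped. The difference from untreated was 0.49 ± 0.15 at the high dose, a signal 1.41 times as high, and 0.15 ± 0.13 at the low dose, or 0.06 without untreated replicate 3. The high-dose value depended on the animal: without high-dose replicate 1 it was 0.30, and without replicate 2 it was 0.69.

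The dimmer ACADVL probe set measured 7.41, 7.30 and 6.87 in untreated animals, 7.16, 7.54 and 7.75 in the low-dose group, and 8.12 and 8.31 in the high-dose group. Here the difference at the high dose was 1.02 ± 0.21, a doubling, and the one at the low dose 0.29 ± 0.19. The latter was 0.13 without untreated replicate 3, 0.15 without low-dose replicate 3 and 0.45 without low-dose replicate 1. On this probe set high-dose replicate 2 was the highest animal, whereas replicate 1 was highest on the brighter one. The difference between the doses was 0.73 ± 0.21 but 0.26 when the 3' to 5' gap entered the fit as a covariate, and the low-dose difference from untreated was then 0.66. In the RefSeq annotation (assembly Sscrofa11.1) ACADVL overlaps both of its neighbours, DLG4 and DVL2, which are not analysed here.

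ECI2 had the widest spread of the 6 genes. It measured 8.47, 7.67 and 9.03 in untreated animals, 8.74, 9.12 and 9.16 in the low-dose group, and 9.60 and 9.23 in the high-dose group. The untreated animals alone spanned 1.36 log2 units, and their highest value lay within the low-dose range. The means of 8.39 ± 0.68, 9.01 ± 0.23 and 9.42 ± 0.26 followed the dose. The differences from untreated were 1.03 ± 0.34 at the high dose and 0.61 ± 0.31 at the low dose. Untreated replicate 2 set much of both: without it they were 0.67 and 0.26, and without untreated replicate 3 they were 1.34 and 0.93. Both high-dose animals were still above the other 6. On the dimmer ECI2 probe set, which is close to background, the means were 3.05 ± 0.09, 3.33 ± 0.14 and 3.13 ± 0.16. There the low-dose mean was the highest, so the means did not follow the dose.

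ECH1 separated the high dose from the rest, and the other groups overlapped. It measured 9.58, 9.23 and 9.27 in untreated animals, 9.59, 9.45 and 8.98 in the low-dose group, and 10.30 and 9.86 in the high-dose group. The means were 9.36 ± 0.19, 9.34 ± 0.32 and 10.08 ± 0.32. The difference from untreated was 0.72 ± 0.22 at the high dose, a signal 1.65 times as high, and -0.02 ± 0.19 at the low dose. Leaving out high-dose replicate 1 or 2 gave 0.50 or 0.94.

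ECI2 and ECH1 act beside ECI1, a paralog of ECI2, and the reductase DECR1. The values of ECI1 and DECR1 are given with no comparison, since ECI2 and ECH1 were chosen for theirs. ECI1 measured 11.18 ± 0.11, 10.94 ± 0.15 and 11.20 ± 0.07 in untreated, low-dose and high-dose animals, a difference of 0.02 ± 0.13 at the high dose (limma adjusted p = 0.99) and -0.24 ± 0.12 at the low dose (0.998). DECR1 differed by -0.06 ± 0.13 and -0.19 ± 0.11 and DECR2, the peroxisomal reductase, by 0.03 ± 0.14 and -0.25 ± 0.12 at the high and low dose. Of these 3 auxiliary enzymes, none passed in either direction, and all 3 were below the untreated mean at the low dose.

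ETFB, the smaller chain of electron transfer flavoprotein, had the smallest difference at the high dose. It measured 10.35, 10.15 and 10.18 in untreated animals, 10.50, 10.36 and 10.44 in the low-dose group, and 10.71 and 10.42 in the high-dose group. All 5 treated animals lay above the 3 untreated ones, though 10.36 at the low dose was next to 10.35 in an untreated animal. Of all probe sets, 1.61% were higher in this way and 1.13% lower. The 2 doses overlapped. The means were 10.23 ± 0.11, 10.43 ± 0.07 and 10.56 ± 0.20, with differences from untreated of 0.34 ± 0.13 at the high dose and 0.21 ± 0.12 at the low dose. Without high-dose replicate 1 the high-dose difference was 0.20, and the difference between doses went from 0.13 to -0.01. When each array was centred on its median, treated and untreated animals overlapped for ETFB too.

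ETFA, the larger chain that pairs with ETFB in the flavoprotein, measured 12.13, 11.91 and 12.12 in untreated animals, 11.73, 11.92 and 12.05 in the low-dose group, and 12.10 and 12.05 in the high-dose group. The groups overlapped in both comparisons with untreated. ETFA differed by 0.02 ± 0.13 at the high dose (limma adjusted p = 0.989) and by -0.15 ± 0.12 at the low dose (0.998), against 0.34 and 0.21 for ETFB. Whether the chains differ from each other was not tested, since ETFB was chosen for its values.

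ETFDH, the oxidoreductase that takes electrons from the flavoprotein, was tight in untreated animals, at 10.60, 10.60 and 10.55 on its brighter probe set. It measured 10.40, 10.40 and 10.66 in the low-dose group and 11.16 and 10.84 in the high-dose group. The means were 10.58 ± 0.03, 10.48 ± 0.15 and 11.00 ± 0.23. The differences from untreated were 0.42 ± 0.14 at the high dose and -0.10 ± 0.13 at the low dose. Without high-dose replicate 1 the former was 0.25, and without low-dose replicate 3 the latter was -0.18.

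The dimmer ETFDH probe set gave the same order of groups. It measured 8.65, 8.36 and 8.27 in untreated animals, 8.00, 8.30 and 8.18 in the low-dose group, and 9.05 and 8.98 in the high-dose group. Its high-dose animals lay above all others. The differences were 0.59 ± 0.15 at the high dose and -0.27 ± 0.14 at the low dose, and the doses differed from each other by 0.86 ± 0.15, the largest difference between doses among the 9 probe sets. With the 3' to 5' gap as a covariate the low-dose difference was -0.07 and that between doses 0.62; in RefSeq the gene C8H4orf46 overlaps ETFDH.

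Set against the low dose, the high dose was higher in 8 of the 9 probe sets, with no overlap in 7 (13.2% of all probe sets, and 13% were lower with no overlap) and a median difference of 0.51 against 0.01 over all probe sets. The 2 probe sets whose doses overlapped were ETFB and the dimmer ECI2. This comparison shares its high-dose arrays with the one against untreated, so it is no independent evidence. The 3' to 5' gap was also larger in every low-dose array (3.28 to 3.78) than in the high-dose arrays (3.00 to 3.03). Apart from ETFDH (0.51 and 0.86), the largest differences between doses were those of ECH1 (0.74 ± 0.22), the dimmer ACADVL probe set (0.73 ± 0.21) and ACSL1 (0.60 ± 0.16). ECI2 differed by 0.41 ± 0.34, or 0.16 with a covariate for untreated replicate 2 and low-dose replicate 1, which carried neighbouring tag numbers. At the brighter ACADVL probe set the difference of 0.34 ± 0.15 was 0.15 without high-dose replicate 1 and 0.53 without replicate 2. None of the 9 was among the 6 probe sets (0.025% of all) that passed in this comparison in limma.

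By their brightest probe sets, ACADVL, ECI2 and ETFB had a low-dose mean between the untreated and the high-dose mean. ACSL1, ETFDH and ECH1 had their lowest mean at the low dose. Apart from ETFB, low-dose and untreated animals overlapped on the brightest probe set of these genes, so this order is not resolved. Over the 8 animals, ACSL1 and ETFDH were the most alike of the 15 pairs of members, with a root mean square difference of 0.12 log2 units between their values after each was centred on its own mean. ACADVL and ETFB came next with 0.13. ECI2 was the least like the rest, at 0.45 to 0.55 from each of the other 5. By the mean of all 6 centred genes the high-dose animals stood at 0.54 and 0.22, the low-dose animals at -0.12, -0.08 and -0.03, and the untreated animals at -0.11, -0.30 and -0.13. High-dose replicate 1 was above replicate 2 in 8 of 9 probe sets.

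**Figure D2:**
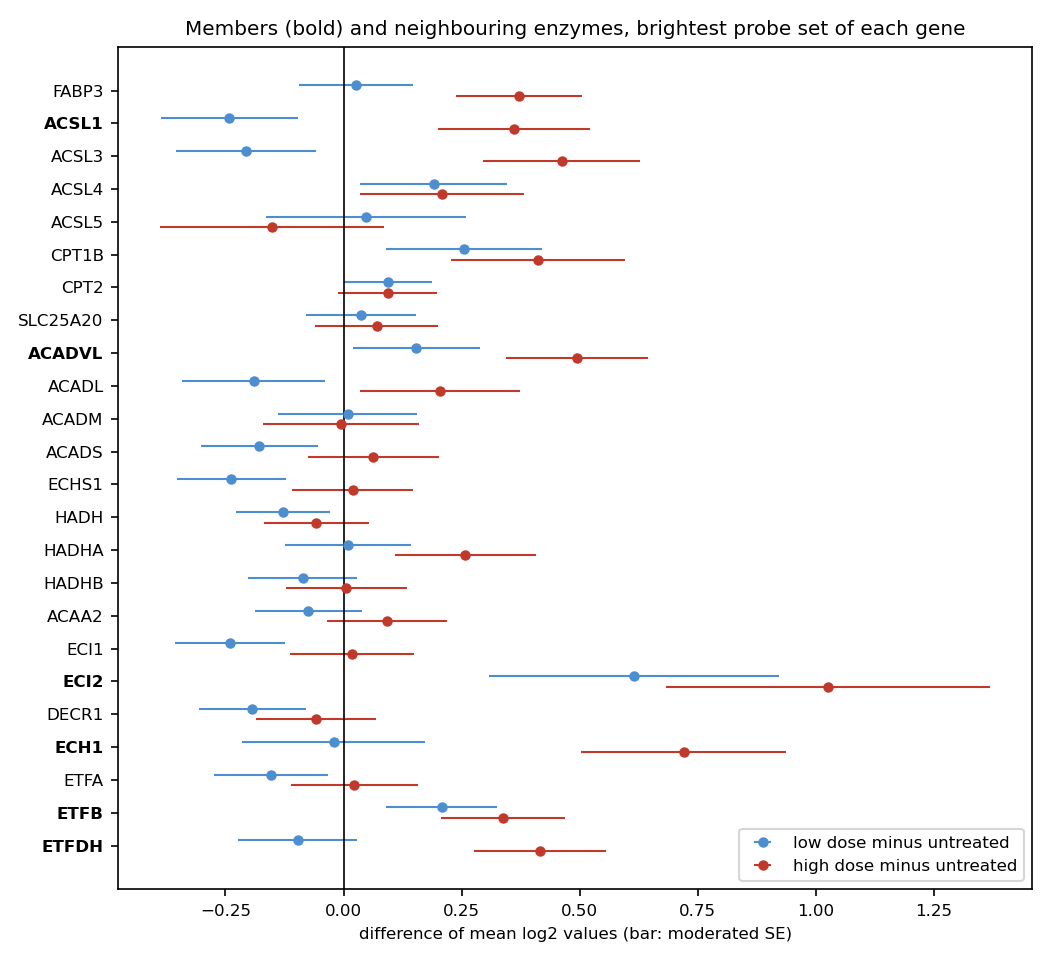
Difference of the mean log2 value from untreated (horizontal axis, with the moderated SE) at the low dose (blue) and high dose (red) for the 6 members (bold) and 18 enzymes that work beside them, each gene by its brightest probe set. The red points of the members, which were chosen with this difference known, lie between 0.34 and 1.03. Those of ACSL3 (0.46), CPT1B (0.41) and FABP3 (0.37) lie within that range, and those of ETFA, ECI1, ACADM and HADHB close to 0.

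The rest of the pathway was read from lists of 81 genes by role, of which 56 were measured. Of all probe sets, 53.3% were higher at the high dose than in untreated animals, and 52% were higher at the low dose. Between the doses 51.1% were higher at the high dose. Of the 56 pathway genes, 44 were higher and 12 lower at the high dose than in untreated animals, with a median of 0.10 against 0.01 over all probe sets. None passed in either direction (smallest limma adjusted p = 0.202), while 8 were higher and 0 lower at an unadjusted limma p under 0.05, a level that 7.97% of all probe sets reached in either direction. With no overlap, 17 were higher and 3 lower, against 14.7% and 12% of all probe sets. The median of the pathway was 0.18 when a gene's probe sets were averaged in place of the brightest, and 0.17 without high-dose replicate 2. At the low dose 28 were higher and 28 lower, with a median of 0.00 and none passing, and at an unadjusted limma p under 0.05 there were 1 higher and 2 lower (4.5% of all probe sets). Between the doses 41 were higher and 15 lower at the high dose, with a median of 0.15 and none passing (11 higher and 1 lower at an unadjusted limma p under 0.05, against 10.2% of all probe sets in either direction). Over both doses against untreated the counts at that level were 4 higher and 0 lower, against 4.83%. The lists, like the members, were drawn up with earlier results of these arrays known. The 3' to 5' gap did not overlap between low-dose arrays (3.28 to 3.78) and high-dose arrays (3.00 to 3.03). Its part in the differences between doses, for these 56 genes and for those named below, was not tested.

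In the carnitine shuttle, which carries long chains into mitochondria, CPT1B, the muscle form of its first enzyme, measured 10.58, 10.61 and 10.68 in untreated animals. Low-dose animals had 11.07, 10.82 and 10.75, and high-dose animals 11.34 and 10.73. All 5 treated animals lay above the untreated ones, as in 1.61% of all probe sets. The CPT1B differences were 0.26 ± 0.16 at the low dose (limma adjusted p = 0.998) and 0.41 ± 0.18 at the high dose (0.627), so neither passed. CPT2 differed by 0.09 and SLC25A20, the carrier between them, by 0.07 at the high dose. CPT1A, the liver form, was at -0.36 ± 0.34 and 0.35 ± 0.31 at the high and low dose.

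The acyl-CoA dehydrogenases other than ACADVL had 8 of 9 genes higher at the high dose, with a median of 0.20 and none passing. ACAD11, which acts on long chains, was at 0.49 ± 0.14 (limma adjusted p = 0.408), with values of 7.63, 7.77 and 7.48 in untreated animals, 7.51, 7.78 and 7.68 in the low-dose group, and 8.21 and 8.02 in the high-dose group. The long-chain enzyme ACADL was at 0.20 ± 0.17, the short-chain enzyme ACADS at 0.06 ± 0.14 and the medium-chain enzyme ACADM at -0.01 ± 0.17. ACAD8, an enzyme of valine breakdown, was at 0.27 ± 0.13 and differed between the doses by 0.49 ± 0.13 (limma adjusted p = 0.291).

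The later steps of each round ranged from -0.06 to 0.35 at the high dose. ECHS1, the hydratase, was at 0.02 ± 0.13, HADH at -0.06 ± 0.11 and the thiolase ACAA2 at 0.09 ± 0.13. HADHA and HADHB, the chains of the trifunctional protein for long chains, were at 0.26 ± 0.15 and 0.01 ± 0.13, and HADHA did not overlap untreated animals. HADHB was at 0.14 and 0.45 on its other probe sets. HSD17B10, a mitochondrial dehydrogenase with several substrates, was at 0.35 ± 0.15 (limma adjusted p = 0.623), next to 0.34 for ETFB. Of these 6 genes, 5 were higher at the high dose and 2 at the low dose, and none passed.

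FABP3, the fatty acid binding protein of heart muscle, measured 13.49, 13.64 and 13.36 in untreated animals, 13.54, 13.38 and 13.66 in the low-dose group, and 13.91 and 13.83 in the high-dose group. The high-dose animals lay above the other 6, at a difference of 0.37 ± 0.13 (limma adjusted p = 0.526). The transporter SLC27A6 was at -0.68 ± 0.34. Of the 6 uptake and binding genes 2 were higher and 4 lower at the high dose, with a median of -0.09 and none passing. The fatty acid transporter CD36 is not analysed here. Of the peroxisomal genes, AMACR, a racemase of branched-chain acyl-CoA, was at 0.71 ± 0.21 (limma adjusted p = 0.42), and 6 of 7 were higher.

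Among genes that control oxidation, 10 of 11 were higher at the high dose, with a median of 0.28 and none passing. PPARGC1A, a coactivator of mitochondrial genes, measured 9.38, 9.87 and 9.06 in untreated animals, 9.15, 9.14 and 9.54 in the low-dose group, and 10.63 and 10.40 in the high-dose group. Its high-dose animals lay above all others and its low-dose animals within the untreated range. PPARGC1A differed by 1.24 ± 0.23 between the doses (limma adjusted p = 0.173). SIRT3, a mitochondrial deacetylase, measured 7.97, 7.88 and 7.81 in untreated animals, 8.34, 8.31 and 8.12 in the low-dose group, and 8.67 and 8.49 in the high-dose group, so the 3 groups did not overlap and stood in the order of the dose. Its difference from untreated was 0.69 ± 0.13 at the high dose (limma adjusted p = 0.202) and 0.37 ± 0.11 at the low dose (0.998). SIRT3 is named here for its small p. Of all probe sets, 1.61% had every treated animal above the untreated ones. The share with all 3 groups apart was not counted.

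PDK4, which holds back glucose oxidation, was at 0.81 ± 0.46 and 0.82 ± 0.41 at the high and low dose, with untreated animals between 11.72 and 13.43. PPARA, the fatty acid receptor that drives these genes in heart, was at 0.44 ± 0.18 at the high dose (limma adjusted p = 0.601). Its mean of 3.97 is little above the lower quartile of 3.78. The high-dose animals, at 4.13 and 4.62, overlapped the untreated ones, which reached 4.15. The other PPARA probe set, with a mean of 2.87 below that quartile, was at -0.10. LPIN1, a phosphatase and coactivator, was lower at the high than at the low dose by 0.72 on the log2 scale (SE 0.24, limma adjusted p = 0.369). The ketone-using enzyme OXCT1 had means of 10.21 ± 0.19, 9.72 ± 0.39 and 10.57 ± 0.02, a difference between doses of 0.85 ± 0.22 (limma adjusted p = 0.266). BDH1, which works before it, was at -0.36 ± 0.15 at the low dose (limma adjusted p = 0.998). UCP2, an uncoupling protein homolog, was at 0.24 ± 0.10 over both doses (limma adjusted p = 0.956).

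**Figure D3:**
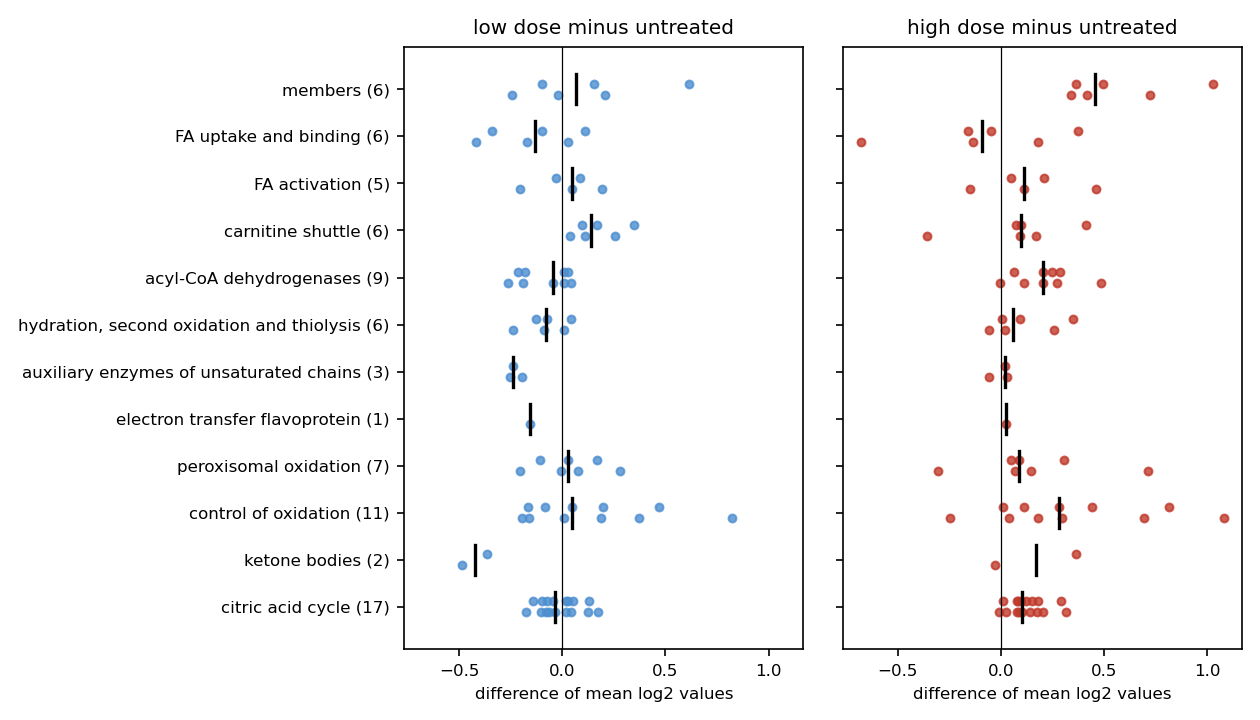
Difference of the mean log2 value from untreated for each measured gene of the pathway by role, with the citric acid cycle beside it. Points are brightest probe sets, numbers in parentheses count genes and black bars are medians. The low dose is on the left and the high dose on the right. The members were chosen with the high-dose difference known, so their median (0.45) is not compared with that of the citric acid cycle (0.10).

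The citric acid cycle, which oxidises the product of beta-oxidation in the same organelle, had 16 of 17 genes higher at the high dose. Of all probe sets, 53.3% were higher in that comparison. The cycle had a median of 0.10, a range of -0.01 to 0.32 and none passing (smallest limma adjusted p = 0.596). At the low dose its median was -0.04, with 8 of 17 higher.

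Probe sets of 1 gene gave unequal differences at the high dose. In all 21 genes with at least 2 probe sets above the lower quartile, 2 of them members, the dimmest lay above the brightest in its difference from untreated; over all 1752 such genes on the array this held for 63.5%. This concerns the signed difference: for SLC27A6 (-0.68 on the brightest, -0.18 on the dimmest) and LPIN1 (-0.25 and -0.16) the dimmest probe set lay closer to 0. At the low dose it held for 11 of the 21, and for 46.7% over all genes. HADHB, for example, was at 0.01, 0.14 and 0.45 on probe sets with means of 12.52, 12.16 and 10.29, and ACOT13, an acyl-CoA thioesterase, at 0.11 and 0.54 on probe sets with means of 11.46 and 9.51. The size of a difference therefore depends on the probe set, for ACADVL (0.49 or 1.02) and ETFDH (0.42 or 0.59) as well. This comparison was chosen after the values were seen and has no test.

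Of the marker lists of other cell types, those of fibroblasts and macrophages had the lowest medians at the high dose. No marker of any of these lists passed in limma. Fibroblast markers were lower in 8 of 10 genes, with a median of -0.87, while COL3A1 (0.83) and TCF21 (0.13) were higher. The mean centred log2 value of fibroblast markers was -0.80 and -0.36 in the high-dose animals. It was -0.08 to 0.48 in untreated and 0.06 to 0.27 in low-dose animals. Macrophage markers were lower in 9 of 10 genes, with a median of -0.48, at -0.48 to -0.37 in high-dose animals, -0.09 to 0.37 in untreated and -0.17 to 0.47 in low-dose animals. None of the 10 fibroblast or 10 macrophage markers was close to background on average. Within the high-dose pair, replicate 1, with the higher members, had the lower fibroblast value (-0.80 against -0.36) but the higher macrophage value (-0.37 against -0.48). Among untreated animals, replicate 2 had the lowest mean of the members (-0.30) and the highest fibroblast value (0.48). That mean rests largely on ECI2, at -1.21 in replicate 2, where the other members lay between -0.30 and 0.09. Replicates 1 and 3 had members at -0.11 and -0.13 with fibroblast values of 0.25 and -0.08. In bulk tissue, fewer cells of a type and less RNA per cell cannot be told apart, and the part of these markers in the values of the members was not tested.

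Cardiac muscle markers had a median difference of 0.04 at the high dose, between -0.10 and 0.19, and their mean centred value was 0.01 to 0.06 in high-dose and -0.08 to 0.06 in untreated animals. Their means reach 14.87, and the highest value on any array is 15.01. Adipocyte markers, whose cells also use ACSL1, had a median near 0 over 8 genes, with 4 higher and 4 lower, and ADIPOQ was close to background. Their mean centred value was -0.14 to 0.05 in high-dose, -0.24 to 0.48 in untreated and -0.29 to 0.19 in low-dose animals. Endothelial markers had a median of -0.23 over 10 genes, with 3 higher and 7 lower and KDR close to background, and ranged from -0.23 to 0.02 in high-dose, 0.04 to 0.14 in untreated and -0.23 to 0.18 in low-dose animals. Of the 7 smooth muscle and pericyte markers 4 were higher and 3 lower, with a median of 0.18, from -0.93 (RGS5) to 1.99 (CNN1, which was also at 1.46 at the low dose). Their mean centred value was -0.03 to 0.02 in high-dose, -0.67 to 0.06 in untreated and 0.10 to 0.42 in low-dose animals.

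**Figure D4:**
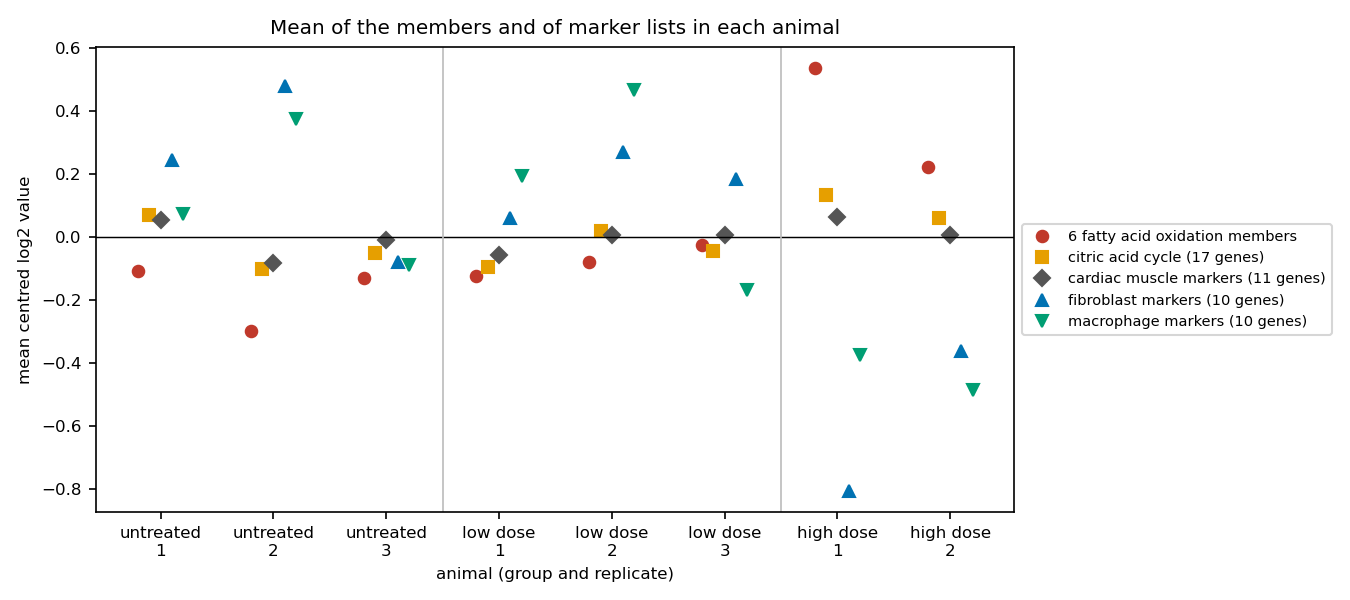
Mean log2 value of the 6 members and of 4 gene lists in each animal (horizontal axis), each gene centred on its mean over the 8 animals (vertical axis). The members, chosen with the high-dose difference known, reach 0.54 and 0.22 in the high-dose animals, where fibroblast and macrophage markers are lowest. Citric acid cycle and cardiac muscle genes stay within 0.14 of 0 in every animal.

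The genes whose values over the 8 animals lay closest to those of each member were sought among the 8497 or 8498 probe sets of other named genes above the lower quartile, by the root mean square difference of centred log2 values. For ETFDH, whose own root mean square about its mean is 0.23, they were MRPL15 (0.05), POLE4 (0.06) and BCS1L (0.07). MRPL15 measured 9.15, 9.12 and 9.18 in untreated animals, 9.10, 8.97 and 9.20 in the low-dose group, and 9.75 and 9.46 in the high-dose group. For ACADVL, with 0.23 of its own, the closest were METAP1D (0.05), NME3 (0.07) and ABCB11 (0.08). For ACSL1, with 0.27, they were ARR3, NUDT6 and BCAS2 (each 0.08). The signals of ARR3 (3.74 to 4.51) and ABCB11 (3.89 to 4.56) lay near the lower quartile of 3.78.

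For ECH1, with 0.38 of its own, the closest were ALDH4A1 (0.13), SGTA (0.15) and ZFAND5 (0.18). ALDH4A1 shared the low value of low-dose replicate 3, at 7.93 against 8.49 and 8.48 in the other low-dose animals. For ETFB, with 0.17, they were P3H4 (0.06), A1BG (0.07) and UNC45B (0.07). A1BG, at 3.90 to 4.27, also lay near the lower quartile of 3.78. ECI2, with 0.55, had no close match: TTC8 (0.27), ALDH5A1 (0.35) and RAB3A (0.36) came first, each also lowest in untreated replicate 2. No member was among the 3 closest genes of another, and none of these values is a test.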

How the data were processed

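RNA was measured in left ventricular muscle of 8 pigs, and groups came from the treatment in the labels. The labels name a different animal for each array; replicates are numbered in sample order, and the numbers pair nothing. The authors deposited log2 values; RMA and Partek 6.6 are the tools listed in the submitters' processing notes, with no settings (not given in the sources used here). The RMA method makes the arrays' distributions alike, so a change shared by most genes would be removed. Of the probe sets, 124 controls were left out and 23999 tested; 10069 carried 1 symbol in the platform annotation, 198 several and 13732 none. No coordinates or sequences were used; the names of neighbouring and overlapping genes came from the RefSeq annotation (Sscrofa11.1), as the array's build is not named. limma 3.58.1 in R 4.3.3 fitted 1 mean per group to all 8 arrays (5 residual degrees of freedom), and Benjamini-Hochberg adjustment ran over all 23999 probe sets with a threshold of 0.05. The script was tested on simulated data.

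The brightest probe set stood for a gene in lists. The members, lists and the rule for named genes were chosen with earlier results of these data known. The rule named all member probe sets, 22 enzymes or regulators next to them where measured, up to 4 other pathway genes per comparison with the smallest p, and the 3 closest genes of each member. SLC27A6, CPT1A, DECR2 and ACOT13 are examples named after their values were seen. Alternatives were median centring, a filter on probe sets of low signal, other variance priors, array weights, quantile normalization repeated, fits limited to 2 groups, covariates for tag number and for the 3' to 5' gap, a looser threshold, averaged probe sets and leaving out each array.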

Additional observations from a re-analysis of the deposited data

How the results depend on the processing

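No paired analysis was possible because the labels hold no replicate numbers shared between groups. The number of probe sets that passed at the high dose against untreated, 0 in the fit reported, was 4 with an intensity trend, 7 with a robust prior, 3 with median centring, 9 with renewed quantile normalization, 2 with only the groups compared, 13 with array weights, 70 with the tag covariate, 2 with the 3' to 5' gap as covariate, 10 at an adjusted p under 0.1, 0 to 19 when 1 array was left out (19 without untreated replicate 2) and 55 without untreated replicate 2 and low-dose replicate 1 together, a setting chosen after the data were seen. For high against low dose, 6 in the fit reported, it was 14 at an adjusted p under 0.1, 1 without dim probe sets, 0 with only the groups compared, 10 with array weights, 25 with the tag covariate, 0 with the gap covariate, 0 to 7 when 1 array was left out and 12 without those 2 animals. For low dose and for any dose against untreated it was 0 in every setting but the last, with 1 each. No member or other pathway gene was among the called probe sets under any of these refits. The cause of these changes was not tested.

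The median of the 56 other pathway genes moved at the high dose from 0.10 to 0.18 with averaged probe sets and to between 0.0823 and 0.17 when 1 array was left out; between doses from 0.15 to 0.19 with median centring and to 0.11 to 0.21 when 1 array was left out; and at the low dose from 0.00157 to between -0.0425 and 0.00157 when 1 array was left out. Over 14 refits of each of 9 member probe sets, 125 of 126 differences at the high dose kept their direction, the dimmer ECI2 probe set being the exception (-0.03 without high-dose replicate 1); 124 of 126 did so at the low dose, where ECH1, at -0.02, turned to 0.09 and 0.16 without untreated replicate 1 or low-dose replicate 3. With 3, 3 and 2 animals, differences of the size seen at the low dose are not resolved.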
